A study of Mus musculus with 6 samples.

Results

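The genes described here are the tumour suppressor gene Trp53, which encodes p53, and 9 core genes of its pathway: Mdm2, Mdm4, Ppm1d, Ccng1, Cdkn1a, Gadd45a, Btg2, Trp53inp1 and Sesn1. They were chosen by symbol, as listed p53 pathway genes, and 8 of the 10 were measured among 19937 genes in all. Earlier results of these data were known when the genes and the wider lists were chosen. Each of the 8 had a single probe set; where a gene has several, the one with the brightest average over all 6 arrays stands for it. Trp53 was not analysed here, because no probe set carries its symbol in the annotation used. Cdkn1a had no probe set of its symbol alone and is left out of the counts and tests.

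The samples were RNA from pooled polysome fractions of clone #483, a mouse leukaemia of the T-cell acute lymphoblastic kind (T-ALL) of strain C57BL6. Cells of 3 samples had been exposed to 4EGI-1 at 100 µM, for 2 h, and those of the other 3 were controls. 4EGI-1 is a small-molecule inhibitor of the contact between eIF4E, which binds the mRNA cap, and its partner eIF4G, and so of cap-dependent translation. The titles call the controls untreated, but the protocol mentions DMSO, and whether these cells received it is not settled. All samples come from 1 clone, and its Trp53 genotype is not given in the sources used here. The comparison asks how much of each mRNA was on polysomes after treatment, relative to the other mRNAs there. Signals were equalised between arrays, so a change in the total mRNA on polysomes cannot be seen. Every rise or fall below is relative in this sense. RNA outside the polysomes was not analysed here, so a change in the amount of an mRNA cannot be told apart from a change in its loading with ribosomes, nor fewer cells with an mRNA from less of it per cell.

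p53 is a transcription factor that is activated by DNA damage and other stress. It switches on genes that stop the cell cycle, repair DNA, restrain growth or kill the cell, and it switches on its own inhibitors, Mdm2 above all, so that the response ends. In thymocytes, the normal counterparts of T-ALL cells, p53 is known for causing death after DNA damage, and mice without it develop thymic lymphomas.

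The labelled cell type was checked against marker genes. Of 20 T-lineage markers 18 were measured, and all 18 lay above the median signal of all genes, as did 2 of 7 B-lineage, 1 of 9 myeloid, 2 of 5 erythroid and 5 of 8 stromal and endothelial markers. No array signal is at 0, so a low signal does not show absence. Summed linear signals were 33652 to 34439 with 4EGI-1 and 36782 to 37431 in controls for T-lineage markers, 463 to 475 with 4EGI-1 and 410 to 420.1 in controls for B-lineage markers, and 494 to 506 with 4EGI-1 and 477 to 506 in controls for myeloid markers. They were 485 to 517 with 4EGI-1 and 493 to 544 in controls for erythroid markers, and 1089 to 1112 with 4EGI-1 and 1148 to 1163 in controls for stromal and endothelial markers. Of the 18 T-lineage markers 7 fell and 1 rose with limma at an adjusted p under 0.05, against 22.9% of all genes called in either direction. Cd2 fell by 0.79, and the T-cell receptor complex genes Cd3e and Cd3d fell by 0.41 and 0.40, on the log2 scale. Cd3g (-0.14) and Cd247 (-0.04) of the same complex did not pass, and the marker that rose was Rag1, by 0.40. Of the 7 B-lineage markers 1 rose and 0 fell, and of the 9 myeloid markers 1 rose and 0 fell. These were Blnk, which rose by 0.99, and Adgre1, by 0.64 on the same scale. Their signals lay at percentiles 51.6 and 18.2 of all genes, that of Adgre1 being dim. Of the erythroid, stromal and endothelial markers 0 passed. The part of these marker differences in the results was not tested.

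p53 target genes are bound at pairs of a 10-base motif, the p53 half-site. RefSeq promoter windows of build GRCm38.p6, from 250 bases before a gene's start to 50 bases after it, were searched for exact matches to its consensus, which reads the same on both strands. At least 1 match lay in a window of 5 of the 7 measured genes that have one, against 9.55% of the 27025 genes in the table. The 5 include genes that rose (Gadd45a and Ppm1d), genes that fell (Ccng1 and Sesn1) and Mdm2, which did not pass the test. Mdm4 and Btg2 had no match in these windows, and Trp53inp1 has no window in the table. These 5 matches are printed in capitals with their surroundings, 5′ to 3′ on the gene's strand, since they are a feature that the 5 genes share while their polysomal levels differed in direction. A match describes the letters and is no measurement of binding. The genes were picked as p53 pathway genes, so a higher share of matches than among all genes can follow from that choice. Sites outside these windows were not searched.
Ccng1, chr11:40755417-40755516, minus strand: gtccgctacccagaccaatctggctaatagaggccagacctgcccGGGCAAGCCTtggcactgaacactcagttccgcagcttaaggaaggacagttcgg
Sesn1, chr10:41887221-41887320, plus strand: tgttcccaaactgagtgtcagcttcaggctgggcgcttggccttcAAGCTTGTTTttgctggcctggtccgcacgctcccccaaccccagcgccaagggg
Gadd45a, chr6:67037393-67037492, minus strand: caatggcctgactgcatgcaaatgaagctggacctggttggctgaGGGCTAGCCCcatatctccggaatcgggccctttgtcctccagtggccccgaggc
Ppm1d, chr11:85311077-85311176, plus strand: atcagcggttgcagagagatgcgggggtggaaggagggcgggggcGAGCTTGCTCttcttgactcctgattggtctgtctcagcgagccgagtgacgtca
Mdm2, chr10:117710890-117710989, minus strand: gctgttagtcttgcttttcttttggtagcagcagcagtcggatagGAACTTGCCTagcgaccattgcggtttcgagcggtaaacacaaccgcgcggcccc
In Ccng1 the match is preceded without a gap by a second stretch that departs from the consensus at 1 base. In Sesn1, whose match belongs to the second of its 2 listed starts, the neighbouring stretch departs at 2 bases and lies 3 bases away. The matches of Gadd45a and Mdm2 have no such neighbour with the central C and G within 3 bases, and the neighbour in Ppm1d departs at 4 bases. The match lies closest to the start in Gadd45a, ending 31 bases before it.

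After 4EGI-1 the polysomal mRNAs of the p53 pathway moved in both directions. Gadd45a rose 2.23-fold and Ppm1d by a small margin, while Trp53inp1, Sesn1 and Ccng1 fell to between 0.585 and 0.642 of their control levels and Btg2 to 0.791. The p53 inhibitor genes Mdm2 and Mdm4 did not pass the test. Of the 8 measured genes, 2 rose, 4 fell and 2 did not pass with limma at an adjusted p under 0.05. Among all genes 11.5% rose and 11.5% fell, 22.9% in all. The median log2 difference (4EGI-1 minus control) was -0.11 over the 8 genes and -0.03 over all genes. In all 8 genes the arrays of the 2 groups separated without overlap, 4 higher and 4 lower, against 37.9% of all genes (17.0% higher and 20.8% lower). All 8 were bright, at signal percentiles 79.5 to 96.9 of all genes, whereas the shares of all genes include dim ones. Shares among genes of like signal were not computed, so these counts cannot be read as particular to the 8 genes. In the following, levels are log2 signals and differences are on the log2 scale, with the moderated standard error (SE) and an adjusted p from limma across all genes.

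**Figure D1:**
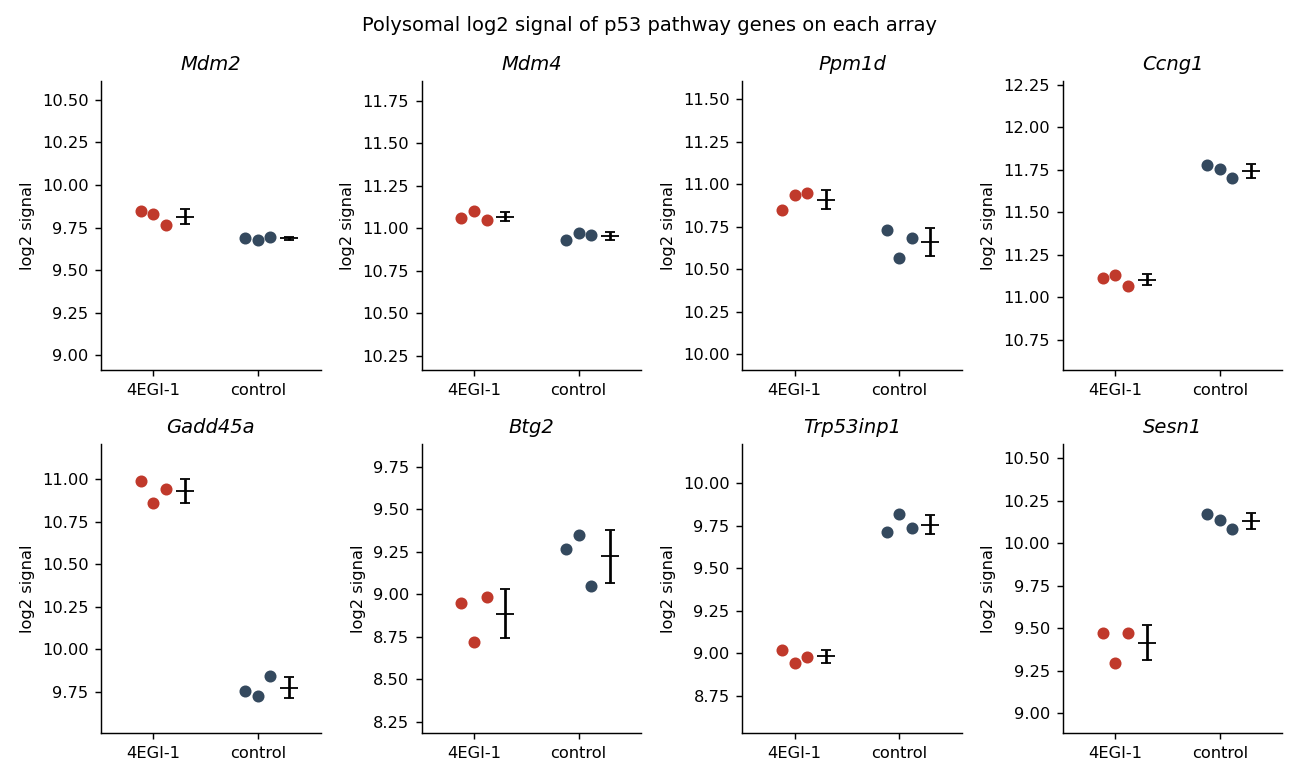
Log2 signal of the 8 measured p53 pathway genes on each array, 4EGI-1 left and control right; points are arrays, bars the mean ± SD (n = 3 each), and each panel spans the same log2 range. Gadd45a stands higher with 4EGI-1 on every array, Ccng1, Trp53inp1 and Sesn1 stand lower, and Mdm2 and Mdm4 differ by little.

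The first group is the inhibitors of p53. Mdm2 (chr10:117688875-117710758) encodes the ubiquitin ligase that marks p53 for destruction. Its signal was 9.84, 9.83 and 9.76 with 4EGI-1, against 9.69, 9.68 and 9.70 in controls. The treated arrays were all slightly higher, but the difference of 0.13 ± 0.06 did not pass (SE; adjusted p = 0.177, 95% interval -0.01 to 0.26). Mdm4 (chr1:132986105-133030587) encodes the related protein that binds the activation domain of p53. It gave 11.06, 11.10 and 11.05 with 4EGI-1 and 10.93, 10.97 and 10.96 in controls, again without overlap. The difference of 0.11 ± 0.06 did not pass either (SE; adjusted p = 0.211, 95% interval -0.02 to 0.25). Within an array, the shift of Mdm2 relative to Mdm4 was 0.01 (exact permutation test, two-sided, p = 0.7).

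Ppm1d (chr11:85311254-85347071) encodes WIP1, the phosphatase that removes activating phosphates from p53 and from the damage kinases. Its signals were 10.85, 10.94 and 10.95 with 4EGI-1, against 10.73, 10.57 and 10.68 in controls. The treated arrays were all higher, and Ppm1d rose by 0.25 ± 0.07 (SE; adjusted p = 0.0323). This call rested on single arrays: the adjusted p was 0.0870 without 4EGI-1 replicate 2, 0.0964 without 4EGI-1 replicate 3, 0.105 without control replicate 2 and 0.0749 without control replicate 3. Ccng1 (chr11:40748552-40755309) encodes cyclin G1, a p53 target that recruits the phosphatase PP2A to Mdm2. It read 11.12, 11.13 and 11.07 with 4EGI-1 and 11.78, 11.75 and 11.70 in controls. The groups lay far apart relative to their spread, and Ccng1 fell by 0.64 ± 0.06 (SE; adjusted p = 0.000215). So the 4 inhibitor genes did not share a direction: 1 rose, 1 fell and 2 did not pass.

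The second group is the genes of cell cycle arrest and growth control. Gadd45a (chr6:67035096-67037407) encodes a small stress protein that binds PCNA and activates a kinase upstream of p38 and JNK. Its signal was 10.99, 10.86 and 10.94 with 4EGI-1, against 9.75, 9.72 and 9.84 in controls. Every treated array was more than 1 unit above every control array, and Gadd45a rose by 1.16 ± 0.07 (SE; adjusted p = 4.95e-05), the largest absolute change among the 8 and the 98th of 19937 genes. Gadd45a is also known as a target of other stress pathways, among them ATF4. The genes most like it over the 6 arrays were Zfp39, Trip12 and Noc3l (Pearson r 0.9998, 0.9998 and 0.9996), though 2140 genes had r above 0.9 because the arrays fall into the same 2 groups.

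Btg2 (chr1:134074865-134079155) encodes an antiproliferative protein that recruits the CCR4-NOT deadenylase. It gave 8.95, 8.72 and 8.99 with 4EGI-1, and 9.27, 9.35 and 9.05 in controls. The groups came within 0.1 of each other, and the spread was the widest of the 8 genes in both groups. Btg2 fell by 0.34 ± 0.10 (SE; adjusted p = 0.0461), close to the threshold. Its adjusted p was 0.0704, 0.127 and 0.0520 without 4EGI-1 replicate 1, 2 and 3, and 0.136 and 0.143 without control replicate 1 and 2.

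The third group is 2 genes of the stress response. Trp53inp1 (chr4:11156441-11174379) encodes a protein that promotes p53 activity, autophagy and cell death. Its signals were 9.02, 8.95 and 8.98 with 4EGI-1, against 9.71, 9.82 and 9.74 in controls. No array of one group came near the other, and Trp53inp1 fell by 0.77 ± 0.06 (SE; adjusted p = 0.00012), the largest decrease of the 8. Sesn1 (chr10:41810574-41908436) encodes sestrin 1, which restrains mTORC1 signalling. It read 9.47, 9.29 and 9.47 with 4EGI-1 and 10.17, 10.13 and 10.08 in controls. Sesn1 was lower on every treated array and fell by 0.72 ± 0.07 (SE; adjusted p = 0.000303).

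**Figure D2:**
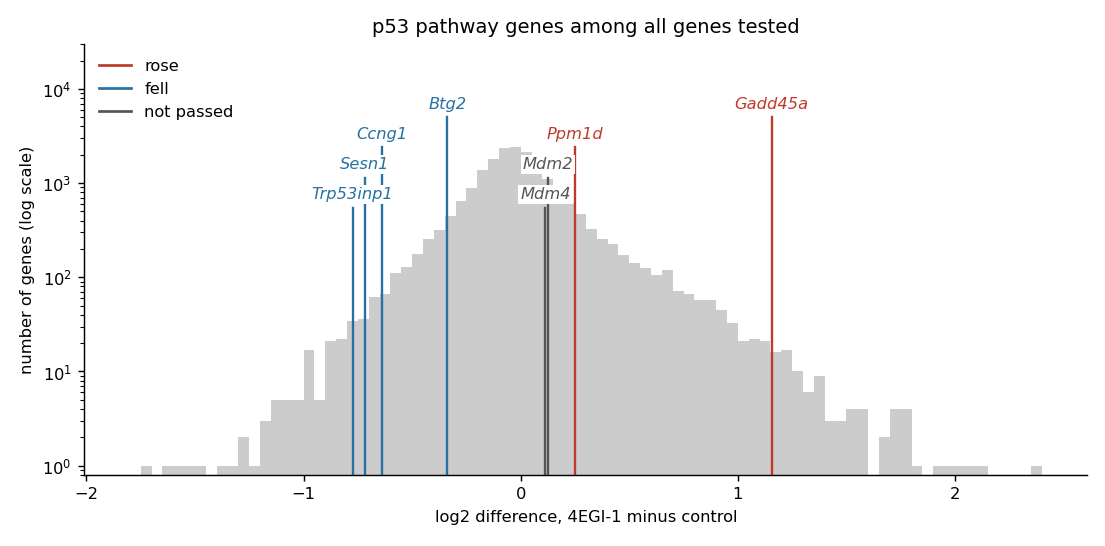
Number of genes (log scale) by log2 difference, 4EGI-1 minus control, for all 19937 genes in grey, with the 8 measured p53 pathway genes as lines coloured by the outcome of the test. Gadd45a at 1.16 lies far out on the right, Trp53inp1, Sesn1 and Ccng1 lie on the left, and Mdm2 and Mdm4 lie near the middle.

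Several of these genes belong to small families, and their paralogs did not all move with them. The list holds 17 family genes and 16 were measured: 1 rose, 3 fell, and 12 were not past the threshold (median difference -0.09). The share of family genes that changed, 4 of 16, is near the 22.9% of all genes. The sestrin genes went opposite ways: Sesn2, also a target of ATF4, had signals of 8.87, 8.79 and 8.81 with 4EGI-1 and 7.96, 7.75 and 7.82 in controls. Sesn2 thus rose by 0.98 ± 0.07 (SE; adjusted p = 9.34e-05), while Sesn3 fell by 0.47 ± 0.06 (SE; adjusted p = 0.00116) in the same direction as Sesn1. Within an array Sesn2 shifted upward relative to Sesn1 by 1.70 (exact permutation test, two-sided, p = 0.1, the smallest p that 3 against 3 allows). In the Gadd45 family Gadd45a alone passed: the differences were -0.08 for Gadd45b (95% interval -0.30 to 0.14) and -0.03 for Gadd45g (-0.19 to 0.12). Gadd45b and Gadd45g were dim, at signal percentiles 27.7 and 32.2 of all genes, against 90.9 for Gadd45a. Their differences therefore say little about whether those mRNAs changed. The shift of Gadd45b relative to Gadd45a was -1.23 (exact permutation test, p = 0.1).

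The cyclin G genes moved together. Ccng2 had signals of 7.49, 7.32 and 7.41 with 4EGI-1, against 7.69, 7.81 and 8.09 in controls, and fell by 0.46 ± 0.11 (SE; adjusted p = 0.0151), a call lost without 4EGI-1 replicate 2 (adjusted p = 0.0522). Its shift relative to Ccng1 was 0.18 (exact permutation test, p = 0.4). In the BTG/TOB family of antiproliferative proteins Tob1 fell by 0.40 ± 0.10 (SE; adjusted p = 0.0240), a call lost without 4EGI-1 replicate 1 or 2 or control replicate 1 or 2 (adjusted p 0.0580 to 0.0870) and with every probe set tested (0.0682), while Btg1 (-0.10) and Tob2 (-0.13) did not pass. Other paralogs did not pass either. Their differences were -0.20 for Trp53inp2, -0.20 for the phosphatase gene Ppm1a, -0.01 for Ppm1b and -0.10 for Ppm1g. The differences were 0.00 for the CDK inhibitor gene Cdkn1b, 0.03 for Cdkn1c, 0.12 for Trp63 and 0.02 for Trp73, the last pair being the relatives of Trp53. Trp63 and Trp73 had dim signals (percentiles 40.9 and 39.9 of all genes). Ppm1d shifted relative to Mdm2 by 0.12 (exact permutation test, p = 0.2). Over the 5 pairs compared in this way the smallest adjusted p was 0.25. The number of family genes that fell was 1, in place of 3, without 4EGI-1 replicate 2.

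**Figure D3:**
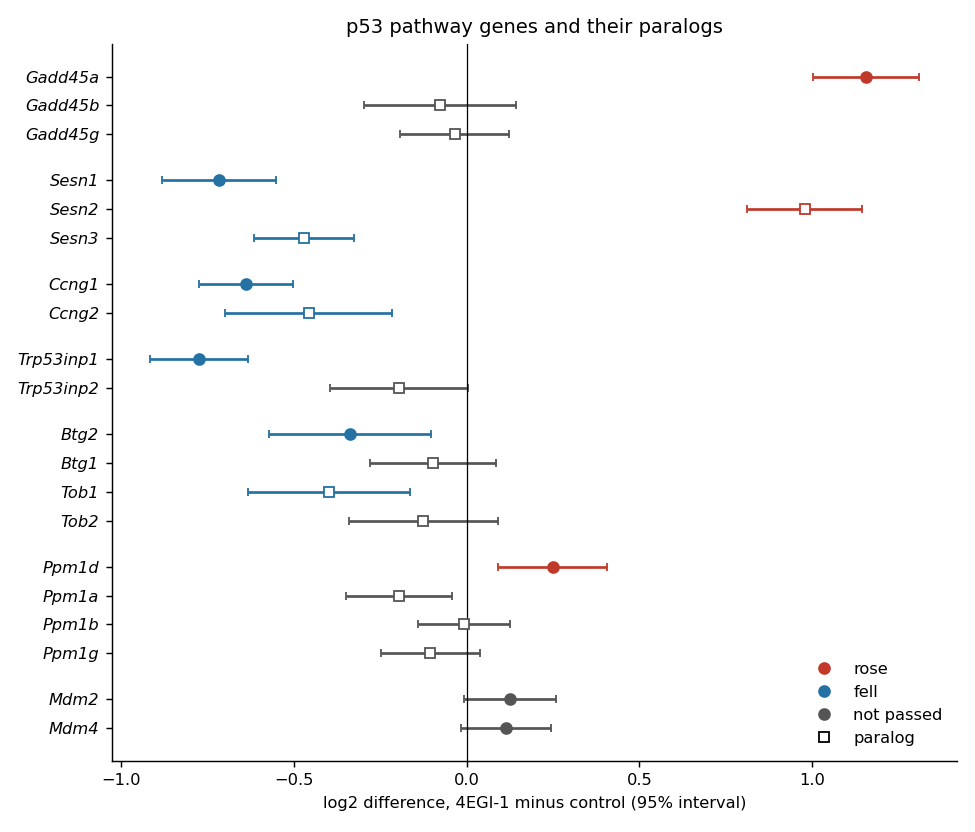
Log2 difference, 4EGI-1 minus control, with its 95% interval for the 8 measured p53 pathway genes (filled) and their paralogs (open squares), coloured by the outcome of the test. Sesn2 at 0.98 stands opposite Sesn1 and Sesn3, and Gadd45a stands apart from Gadd45b and Gadd45g, whose signals were dim and whose intervals span 0.

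The wider pathway was read from 9 lists, the family list included, with 134 genes in all, of which 125 were measured. In all 57 of the 125 changed, 23 upward and 34 downward, against 22.9% of all genes, 11.5% in each direction. Of the 125, 108 lay above the median signal of all genes, so the share of all genes is not a like background. A share among genes of like signal was not computed. When only genes as bright as the table's median were kept, 2336 genes were higher and 2806 lower. That is more calls among fewer genes than the 2286 higher and 2287 lower of all genes, so the share called among bright genes is above 22.9%. The 57 of 125 therefore cannot be read as an excess. Some genes are on several lists. Upstream of p53 stand the kinases and cofactors that activate it. There were 17 measured genes here, with 8 higher, 1 lower and 8 not past the test, and a median difference of 0.08. The large damage kinase genes rose on every array: Atr by 0.78 ± 0.07, Atm by 0.77 ± 0.07 and Prkdc by 0.71 ± 0.07 (SE; adjusted p 0.000238, 0.000250 and 0.000281). Atm gave 9.85, 9.85 and 9.70 with 4EGI-1, and 8.93, 9.09 and 9.08 in controls. Chek2, the kinase gene that acts downstream of Atm, went the other way and fell by 0.68 ± 0.06 (SE; adjusted p = 0.000193). Its signals were 8.26, 8.33 and 8.20 with 4EGI-1, against 8.96, 8.95 and 8.93 in controls, a tight split. Cdkn2a, which encodes the Mdm2 inhibitor ARF, differed by -0.08 (adjusted p = 0.473), at a dim signal (percentile 32.3 of all genes).

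Other factors that act on p53 or Mdm2 protein moved both ways. Of 15 genes 4 rose and 4 fell (median -0.06), against 11.5% of all genes in each direction. All 15 lay above the median signal of all genes, so that share is not a like background. The ubiquitin ligase genes Huwe1 and Trim24 rose by 0.35 ± 0.06 and 0.42 ± 0.06, and Rybp, whose product binds Mdm2, by 0.43 ± 0.07 (SE). Usp2, a deubiquitinase gene that stabilises Mdm2, fell by 0.59 ± 0.07 (SE), and Ube4b and Usp10 each fell by 0.30. The call of Ube4b was lost without control replicate 3 (adjusted p = 0.0528), and that of Usp10 without 4EGI-1 replicate 2 or 3 or control replicate 1 or 3 (0.0900 to 0.116) and with every probe set tested (0.0820). Usp7, whose product deubiquitinates both p53 and Mdm2, differed by -0.08 (adjusted p = 0.399). The number that fell was 2, in place of 4, without 4EGI-1 replicate 2, control replicate 1 or control replicate 3.

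Among the other known p53 targets, 14 genes of cell death were measured. In this list 6 genes fell, 1 gene rose and 7 were not past the threshold (median -0.14), against 11.5% of all genes in each direction. The BH3-only gene Bid fell by 0.58 ± 0.07, the death inducer gene Siva1 by 0.44 ± 0.08 and the death receptor gene Fas by 0.42 ± 0.08 (SE; adjusted p 0.000649, 0.00702 and 0.00644). Fas had signals of 7.12, 7.10 and 6.86 with 4EGI-1 and 7.46, 7.42 and 7.48 in controls. The TRAIL receptor gene Tnfrsf10b was the member that rose, by 0.55 ± 0.13 (SE; adjusted p = 0.0162), and its call was lost without control replicate 2 (adjusted p = 0.0598) and with every probe set tested (0.0555). Its signal lay below the median of all genes (percentile 47.8). The BH3-only genes Bbc3 (0.01) and Pmaip1 (-0.13) did not pass, both at dim signals (percentiles 38.2 and 36.5 of all genes).

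In the list of DNA repair targets, 4 of the 8 measured genes rose and 0 fell with limma, with a median of 0.29. Among all genes 11.5% rose and 11.5% fell, and all 8 genes of this list lay above the median signal. At an unadjusted p under 0.05, 0 were lower, and a trended robust prior gave 1 lower. The translesion polymerase gene Polk rose by 0.89 ± 0.08, the excision nuclease gene Ercc5 by 0.66 ± 0.07 and the p53-inducible ribonucleotide reductase gene Rrm2b by 0.50 ± 0.06 (SE; adjusted p 0.000229, 0.000316 and 0.000812). Polk gave 9.79, 9.56 and 9.68 with 4EGI-1, against 8.78, 8.69 and 8.89 in controls. The fourth was the damage recognition gene Ddb2, at 0.47. Whether the repair and death targets differed from each other was not tested.

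The 13 measured targets in metabolism and autophagy gave 3 increases and 3 decreases (median -0.07), against 11.5% of all genes in each direction. Besides Sesn2, the mTORC1 inhibitor gene Ddit4 rose by 0.73 ± 0.08, and the AMPK subunit gene Prkab1 by 0.23 ± 0.06 (SE; adjusted p 0.000562 and 0.0322). The call of Prkab1 was lost without 4EGI-1 replicate 1 or 3 or control replicate 2 or 3 (adjusted p 0.0831 to 0.111), with the replicate number as a block (0.0607) and with every probe set tested (0.0601). Besides Sesn3, the autophagy kinase gene Ulk1 fell by 0.60 ± 0.07 and the glutathione peroxidase gene Gpx1 by 0.37 ± 0.08 (SE; adjusted p 0.000546 and 0.0117). Both Sesn2 and Ddit4 are also known to respond to ATF4, whose part in the changes described here was not tested. The 11 other arrest and growth targets gave 1 increase and 3 decreases (median -0.10), beside the same 11.5% of all genes in each direction. Zmat3, an RNA-binding p53 target, fell by 0.50 ± 0.06 and Gtse1, whose human product moves p53 out of the nucleus, by 0.54 ± 0.06 (SE; adjusted p 0.000641 and 0.000441). Plk2 fell by 0.28, to a low signal of 4.73 with 4EGI-1, against 5.01 in controls, and its call was lost without 4EGI-1 replicate 1 or 3 or control replicate 1 or 2 (adjusted p 0.0748 to 0.0875), with every probe set tested (0.0597) and with a trended robust prior (0.0736). Pml rose by 0.24, and this call was lost without any 1 of 5 arrays (adjusted p 0.0508 to 0.0718), control replicate 1 being the exception.

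p53 represses cell cycle genes through p21, the product of Cdkn1a, and the DREAM complex. The 22 such genes measured gave 12 decreases and 2 increases (median -0.24), against 11.5% of all genes in each direction. All 22 lay above the median signal of all genes, and shares among genes of like signal were not computed. The mitotic kinase genes Aurka, Plk1 and Cdk1 fell by 0.89 ± 0.07, 0.86 ± 0.07 and 0.71 ± 0.09 (SE; adjusted p 0.000115, 0.000116 and 0.000875). Plk1 had signals of 9.77, 9.72 and 9.79 with 4EGI-1 and 10.69, 10.52 and 10.65 in controls. The topoisomerase gene Top2a rose by 0.76 ± 0.07 and the checkpoint kinase gene Bub1 by 0.48 ± 0.07 (SE; adjusted p 0.000193 and 0.00216). Top2a has 2 probe sets, and the rise of 0.76 is that of the one with the higher mean. The other is not given by itself here, so whether both rose is not shown. The difference of Top2a was 0.29 to 0.80 over the 14 alternative fits, with the call kept in each. Those fits include the mean of its probe sets.

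The last list held 11 RNA-binding proteins known to act on Trp53 or Cdkn1a mRNA. With limma 0 of them were higher and 3 lower (median -0.06), against 11.5% of all genes in each direction. All 11 lay above the median signal of all genes, so that share is not a like background. At an unadjusted p under 0.05, 0 were higher. Rbm38, itself a p53 target whose product binds both mRNAs, fell by 0.95 ± 0.08 (SE; adjusted p = 0.000136), the largest change on any of the 9 lists apart from Sesn2. Its signals were 7.72, 7.57 and 7.51 with 4EGI-1, against 8.47, 8.65 and 8.54 in controls. The translation repressor gene Pdcd4 fell by 0.30 and Rpl26, whose human protein binds the start of p53 mRNA, by 0.23. The call of Pdcd4 was lost without control replicate 1 (adjusted p = 0.0508), and that of Rpl26 without 4EGI-1 replicate 1 or 2 or control replicate 2 or 3 (0.0523 to 0.0707) and with the replicate number as a block (0.0522). Both Ncl (0.09) and Ptbp1 (-0.06) did not pass.

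**Figure D4:**
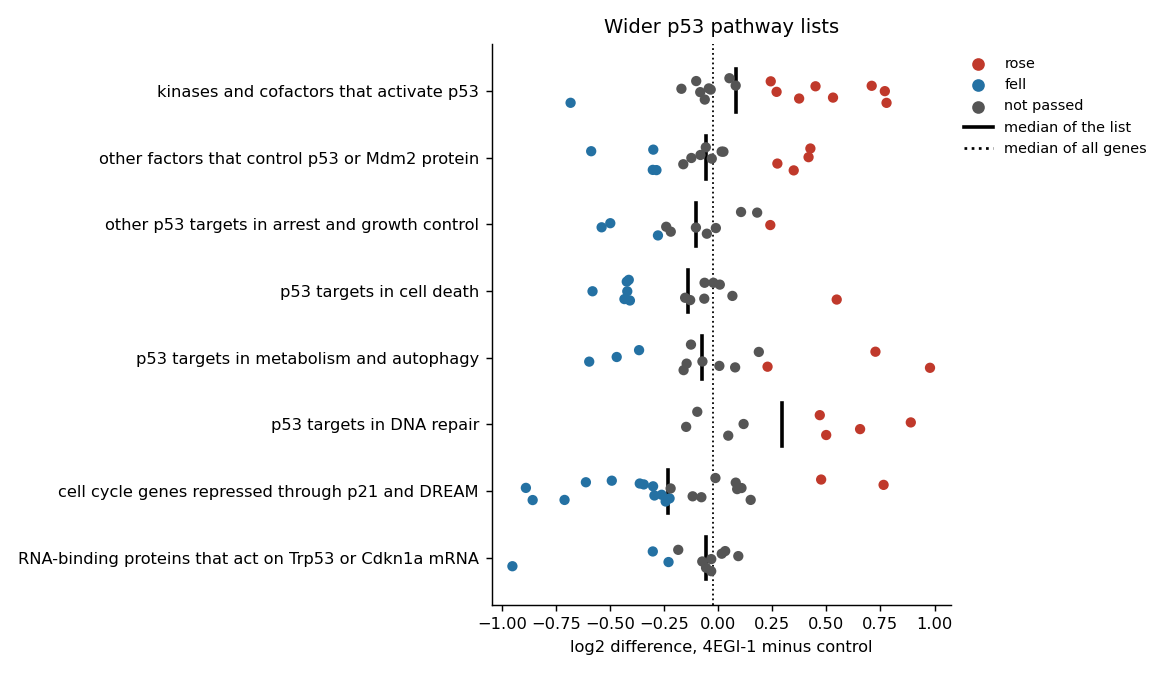
Log2 difference, 4EGI-1 minus control, of each measured gene on 8 wider p53 lists, 1 point per gene coloured by the outcome of the test; thick bars are list medians and the dotted line is the median of all genes at -0.03. DNA repair targets lie to the right with a median of 0.29, and the genes repressed through p21 and DREAM lie to the left with a median of -0.24.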

How the data were processed

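RNA of pooled polysome fractions was amplified with a whole-transcript kit and hybridised as biotin-labelled cDNA, 1 array per sample, per the labels' protocols. The deposited values are log2 signals of probe sets, for which the submitters' processing notes name RMA. Its version and settings are not stated in the labels. RMA equalises arrays (medians 6.38 to 6.43), so values are relative within an array, and detection calls were not used. Titles gave the groups and replicate numbers. Of 34760 probe sets, 21640 have 1 gene symbol, 1321 several and the rest are unnamed here. Old symbols were replaced through their Entrez identifiers (21553 matched) from RefSeq genes of GRCm38.p6, which also gave the loci; array coordinates were not used. The probe set with the highest mean was kept per gene.

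The R package limma 3.58.1 (R 4.3.3; lmFit, then eBayes) was fitted to 19937 genes, with no filter, two-sided, Benjamini-Hochberg adjusted over all genes, threshold 0.05. The residual degrees of freedom were 8.15 with the prior; the median SE of a difference was 0.08, and the number of arrays limits precision. The script was tested on simulated data. No pair of arrays was alike enough to be 1 sample deposited again (smallest median absolute difference 0.0927). The design text calls the samples biological replicates. Same-numbered arrays of the 2 groups did not deviate together (correlations 0.06, 0.11 and -0.02), so numbers were not taken as pairs.

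Pairs of genes were compared by their log ratio within an array with an exact permutation test, adjusted over the 5 pairs; 3 other planned pairs needed Trp53 or Cdkn1a. Genes named are the 10 members, the paralogs and, per wider list, up to 3 that passed in each direction by absolute difference; Cdkn2a, Usp7, Bbc3, Pmaip1, Ddb2, Ncl and Ptbp1 and the markers were named after their values were seen. For Trp53, the rule's search for like genes could not be made. The members and lists were chosen with earlier results of these data known. Alternatives were the replicate block, 2 filters on dim genes, every probe set, the mean of probe sets, quantile normalization, weights per array, a prior that is trended and robust, the stricter threshold of 0.01 and the omission of 1 array at a time.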

Additional observations from a re-analysis of the deposited data

How the results depend on the processing

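Gadd45a, Trp53inp1, Ccng1 and Sesn1 kept their direction and their call in all 14 alternative fits, with differences of 1.13 to 1.19, -0.80 to -0.74, -0.66 to -0.62 and -0.75 to -0.66, and Mdm2 and Mdm4 passed in 0 of the 14 (adjusted p 0.0769 to 0.335 and 0.0548 to 0.360). Btg2 passed in 6 and Ppm1d in 8 of the 14. With the replicate block Btg2 stayed at -0.34 (adjusted p = 0.0922) and Ppm1d at 0.25 (adjusted p = 0.0667), and with every probe set tested, which adjusts over 34760 probe sets, the adjusted p was 0.107 for Btg2 (-0.34) and 0.0668 for Ppm1d (0.25). In each of those 2 settings the number of the 8 genes that were higher was 1 in place of 2; the block changed no other call of the 8. Array weights gave -0.31 for Btg2 (adjusted p = 0.0695). Leaving out 1 array gave -0.42 to -0.25 for Btg2, 0.20 to 0.29 for Ppm1d, and 1 to 2 higher and 3 to 4 lower among the 8. At an adjusted p under 0.01 there was 1 higher among the 8, 19 of the wider pathway genes were lower, and 1488 and 1248 of all genes were higher and lower. Mdm2 relative to Mdm4 ranged from -0.01 to 0.03 without 1 array. Of the list counts and medians, 37 of 410 alternative values moved and the cause was not tested; the cell death median was -0.41 when only genes as bright as the table's median were kept, which drops dim members, and the metabolism median was then 0.04. The number of arrays, 3 a group, limits the precision.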

Other observations

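The annotation lists 1 probe set (10443463) for both Cdkn1a, which encodes the CDK inhibitor p21, and 4930567H12Rik, so its signal cannot be assigned to either. It gave 8.81, 8.57 and 8.86 with 4EGI-1, against 9.61, 9.59 and 9.42 in controls, lower on every treated array. The difference was -0.79 ± 0.10 on the log2 scale (SE; limma adjusted p = 0.00559 over 34760 probe sets).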
